A study of Saccharomyces cerevisiae with 46 samples.

Results

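The 16 centromeres of budding yeast were examined as 640 bins of 1 kb, the nuclear bins whose middle lay within 20 kb of a centromere, out of 12079 nuclear bins. Each chromosome contributed 40 bins, called its centromere stretch here. The members were chosen by position alone, and 631 of them held reads in at least 50% of the samples. Genomic DNA of the laboratory strain W303 of Saccharomyces cerevisiae, from overnight cultures, was sequenced as tagmentation libraries in 46 samples. They comprise 3 line samples labelled evolved_Bub3 (lines C2, E3 and G4), 20 lines labelled evolved, and the same 20 lines labelled non-evolved. The wildtype LY1 gave 1 sample in each of the 3 states. The series concerns cells deficient in Bub3. Which alleles each line carries, its ploidy, and what was done to make evolved or evolved_Bub3 samples were not given in the sources used here. Each line and state is 1 library. Coverage of the BUB3 gene itself differed widely between the 20 lines, with values given further on. Means and tests over 20 lines pool all of them, and whether results differ by BUB3 coverage was not tested. In the main tests between states the p-values measure how the difference within a line varies between lines. For evolved_Bub3 that spread is estimated in 1 fit over all 20 lines, not over its 3 lines alone. The p-values against the chromosome median measure the spread between lines.

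A budding-yeast centromere is a point centromere: a short, defined DNA element on which one specialised nucleosome with the histone Cse4 and one kinetochore assemble, attached to one spindle microtubule. The flanking pericentromere is rich in cohesin and condensin, which hold sister chromatids together there until anaphase. Bub3 belongs to the spindle assembly checkpoint, which delays anaphase while kinetochores lack microtubules, and it helps bring shugoshin to the pericentromere. A missegregated whole chromosome changes the copy number of both arms and of the centromere between them alike, whereas a break or recombination event near a centromere can leave the arms at different levels.

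The values were log2 copy ratios per bin, on which a difference of 1 is a doubling of coverage. Samples held 1961866 to 3770032 reads in all, with 130 to 292 in the median bin. The centromere bins took 5.14% to 5.68% of the nuclear reads and make up 5.3% of the nuclear bins. Unless stated otherwise, a value is a bin's log2 copy ratio minus the median of its chromosome in the same sample, so whole-chromosome gains cancel. Arms are the bins over 20 kb from the centromere and from both chromosome ends. States were compared with limma with the line as a block, fitted to all bins or windows of the genome and adjusted by Benjamini-Hochberg over all of them, and the wildtype samples entered no fit. The library numbers in the labels run by state, so an effect of library order cannot be told apart from one of state.

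Coverage around the centromeres was slightly below that of the arms in most samples, in every state. The median of the centromere bins minus the median of the arm bins was -0.0208 ± 0.0032 in evolved_Bub3 lines (SD, n = 3), -0.0133 ± 0.0141 in evolved lines and -0.0107 ± 0.0136 in non-evolved lines (SD, n = 20 each), all on the log2 scale. It was below 0 in 3 of 3 evolved_Bub3, 17 of 20 evolved and 16 of 20 non-evolved lines. In the wildtype the same difference was -0.0194 in the evolved_Bub3 sample, -0.0056 in the evolved sample and -0.0416 in the non-evolved sample. The 3 lowest values belonged to B2 non-evolved (-0.0544), A4 evolved (-0.0510) and LY1 non-evolved (-0.0416), and the highest to D4, at 0.0116 when evolved and 0.0119 when non-evolved. No p is given for this difference, because it summarises the members themselves. The states overlapped throughout.

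The libraries with the lowest centromere values also stood apart in their arms. B2 non-evolved had the shorter arm above the longer one by 0.0863 on average, higher on 14 of the 16 chromosomes, A4 evolved by 0.0579 on 15 and LY1 non-evolved by 0.0492 on 15. The other 43 samples lay between -0.0113 and 0.0419 in this mean. Whether that unevenness along chromosomes took part in the low centromere values was not tested. Without lines B2 and A4 the mean difference between centromere stretches and arms was -0.0102 in evolved lines and -0.00793 in non-evolved lines.

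The 16 chromosomes differed from each other more than the states did. By medians over bins, the stretch of chromosome VI lay lowest, at -0.0593 ± 0.0555 in evolved_Bub3 lines (n = 3), -0.0634 ± 0.0403 in evolved lines and -0.0750 ± 0.0327 in non-evolved lines (SD, n = 20 each), and below its arms in 45 of 46 samples. Chromosome I came next, at -0.0503 ± 0.0110 in evolved_Bub3, -0.0566 ± 0.0333 in evolved and -0.0623 ± 0.0435 in non-evolved lines, and below its arms in 44 of 46 samples. Chromosome V followed, at -0.0450 ± 0.0230 in evolved_Bub3, -0.0360 ± 0.0246 in evolved and -0.0308 ± 0.0357 in non-evolved lines. At the other end stood chromosomes IX and IV. The stretch of IX was at 0.0218 ± 0.0106 in evolved_Bub3 lines, 0.0145 ± 0.0328 in evolved lines and 0.0253 ± 0.0308 in non-evolved lines, and below its arms in 12 of 46 samples. That of IV was at -0.0312 ± 0.0376 in evolved_Bub3 lines, 0.0186 ± 0.0259 in evolved lines and 0.0266 ± 0.0376 in non-evolved lines. The remaining 11 chromosomes had means over all 46 samples between -0.0269 (XI) and 0.0068 (VII), and neighbours in that order differed by less than their SD between samples. The order depended on the use of medians: with means over bins, which take in the nearly empty bins described further on, the evolved lines were at -0.236 on II, -0.201 on I and -0.137 on VI, and at 0.0505 on III, where the median gave -0.0077.

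**Figure D1:**
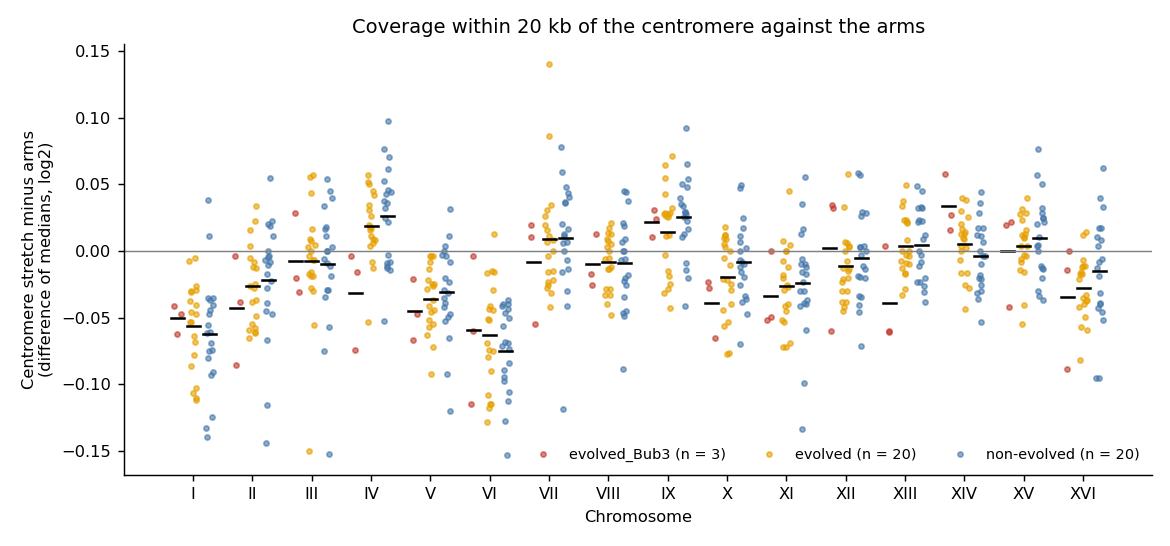
Median log2 coverage of the bins within 20 kb of the centromere minus the median of the arms (vertical axis) for each chromosome (horizontal axis). Points are samples of the lines, black bars the group means; chromosomes VI, I and V lie mostly below 0 and IX mostly above it in all 3 states.

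Each stretch was then set against its chromosome median in a table of 307 windows of 40 kb laid outward from the centromeres over the whole nuclear genome. In evolved lines 2 of the 16 centromere windows were higher (IV and IX) and 6 were lower (I, II, V, VI, XI and XVI) at an adjusted p under 0.05 (limma, Benjamini-Hochberg over all windows). Of all 307 windows, 30.6% were called higher and 22.5% lower in evolved lines. In non-evolved lines 2 were higher (IV and IX) and 4 were lower (I, V, VI and XI), against 30.9% of all windows higher and 21.5% lower. By medians over bins, the lowest centromere window was that of VI, at -0.0557 (SE 0.00835, limma adjusted p = 7.72e-06) in evolved lines and -0.0593 (SE 0.00668, adjusted p = 1.48e-07) in non-evolved lines. With means over bins I was at -0.273, II at -0.255 and VI at -0.131 in evolved lines, so that I and II lay below VI. The highest by medians was that of IV, at 0.0236 (SE 0.00616, limma adjusted p = 0.00257) in evolved lines and 0.0307 (SE 0.00771, adjusted p = 0.00215) in non-evolved lines. The median centromere window stood at -0.00442 in evolved and -0.000197 in non-evolved lines, and the median of all windows at 0.00389 in evolved and 0.00496 in non-evolved lines. The windows of the whole genome ranged from -4.67 to 0.133 in evolved lines. With windows of 20 kb, 4 calls of evolved lines were lost: IV at 0.0152 (limma adjusted p = 0.141), IX at 0.0152 (adjusted p = 0.117), II at -0.00926 (adjusted p = 0.311) and XVI at -0.0102 (adjusted p = 0.328). In that setting 1 centromere window, not called higher with windows of 40 kb, was called higher, and 4 were called lower. Of all 598 windows of 20 kb, 29.9% were called higher and 19.6% lower.

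No centromere window or bin passed the test between evolved and non-evolved lines. None of the 16 centromere windows and none of the 307 windows was called between these states (0% called), with 0 centromere windows and 7 of all windows at an unadjusted p under 0.05. The differences of the 16 windows ran from -0.0127 (XVI, SE 0.0102) to 0.00825 (XIV, SE 0.00718), all limma adjusted p = 0.987. Bin by bin, 0 of 631 centromere bins and 0 of 11810 bins were called by limma (0%), and 35 centromere bins (5.55%) against 543 of all bins (4.6%) had an unadjusted p under 0.05. The centromere bin with the lowest p held ADE1, a purine synthesis gene near the chromosome I centromere, and its neighbour KIN3, a protein kinase: it differed by -0.107 (SE 0.0317, limma adjusted p = 0.992). The median difference was -0.00562 over the centromere bins and -0.000349 over all bins.

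Coverage as a function of distance gave no step at the centromere itself. The 32 bins whose middle lay within 1 kb had a median of -0.0114 ± 0.0423 in evolved_Bub3 lines (SD, n = 3), -0.0238 ± 0.0325 in evolved lines and -0.0155 ± 0.0363 in non-evolved lines (SD, n = 20 each). Between 5 and 10 kb the median was -0.0064 ± 0.0067 in evolved_Bub3, -0.0040 ± 0.0152 in evolved and -0.0019 ± 0.0172 in non-evolved lines. Of the bands within 20 kb, read on each side, the lowest lay 10 to 15 kb from the centromere on the left side. This band was at -0.0500 ± 0.0330 in evolved_Bub3, -0.0534 ± 0.0220 in evolved and -0.0416 ± 0.0238 in non-evolved lines. It was below 0 in 3 of 3 evolved_Bub3, 20 of 20 evolved and 19 of 20 non-evolved lines. The matching band on the right side stood at -0.0287 ± 0.0238 in evolved_Bub3, -0.0006 ± 0.0178 in evolved and 0.0035 ± 0.0255 in non-evolved lines. Of the 79 bins in the left band, 7 had a mean below -1, against 4 of 79 in the right band. With such bins left out, an alternative chosen after seeing the data, the left band stood at -0.0264 in evolved_Bub3, -0.0390 in evolved and -0.0226 in non-evolved lines. Single chromosomes could differ from this picture. On II the 20 kb left of the centromere minus the 20 kb right of it was below 0 in every sample. It ran from -0.2134 to -0.0284 in the 16 samples with a gain of II and from -0.2602 to -0.0129 in the 30 without it.

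**Figure D2:**
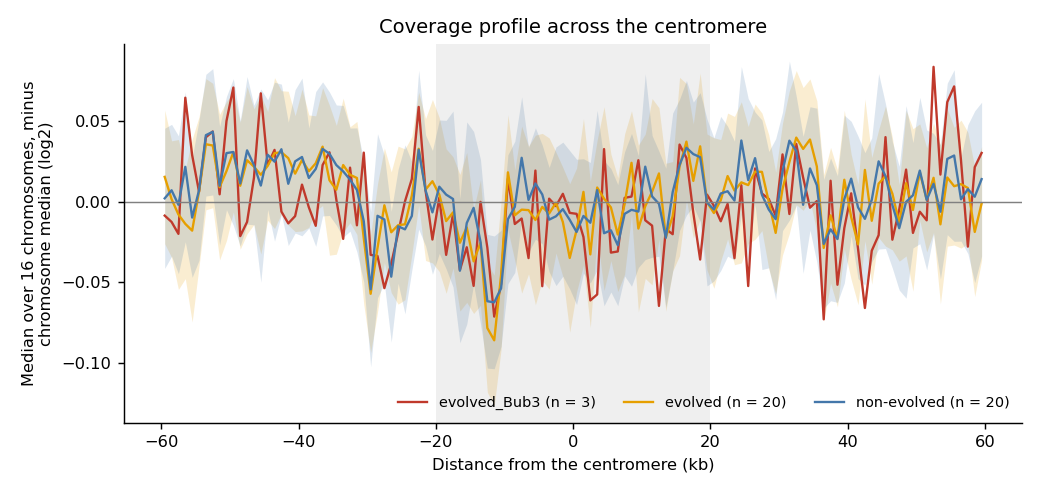
Log2 coverage minus the chromosome median (vertical axis), as the median over 16 chromosomes in steps of 1 kb, against distance from the centromere in kb (horizontal axis; left arm negative). Lines are means over the samples of each state, shading ± 1 SD between samples for evolved and non-evolved lines, grey the stretch within 20 kb. Evolved and non-evolved lines are lowest at -11.5 kb (-0.0858 and -0.0623), with a further dip outside the stretch at -29.5 kb (-0.0570 and -0.0542). The evolved_Bub3 mean, over 3 lines, is at -0.0711 at -11.5 kb and lowest at 36.5 kb (-0.0728).

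The bins that hold the centromeres themselves were ordinary in level. Their means over 46 samples ran from -0.119 (I) to 0.0897 (X), with SDs between samples of 0.112 to 0.181, and neighbours in this order differed by less than those SDs. All 16 bins held reads in every sample. The centromere of chromosome I lies between TFC3, a subunit of the polymerase III factor TFIIIC, and NUP60, a nuclear pore protein. Its bin (I, 151001 to 152000 in the R64 assembly) averaged -0.101 ± 0.122 in evolved_Bub3 lines (SD, n = 3), -0.142 ± 0.144 in evolved lines and -0.110 ± 0.158 in non-evolved lines (SD, n = 20 each). The centromere of X lies between PRE3, a proteasome subunit, and AVT1, a vacuolar amino acid transporter, and its bin (436001 to 437000) averaged 0.106 ± 0.0614 in evolved_Bub3, 0.0887 ± 0.115 in evolved and 0.0797 ± 0.135 in non-evolved lines. The centromere of XI lies between MET14, the adenylylsulfate kinase of sulfate assimilation, and VPS1, a dynamin-like GTPase, at 0.0639 ± 0.0677 in evolved_Bub3, -0.0838 ± 0.0923 in evolved and -0.0402 ± 0.119 in non-evolved lines. Near that of XII lies DNM1, also a dynamin-like GTPase, and near those of II and IV lie the neutral trehalases NTH2 and NTH1. The bin of II averaged 0.0694 ± 0.122, that of IV 0.0558 ± 0.139 and that of XII 0.0406 ± 0.143 over 46 samples. CDC5, the polo-like kinase of mitosis, lies to the right of the centromere of XIII, whose bin averaged -0.0915 ± 0.147. The others were at -0.0140 (V), -0.0637 (VII), 0.0199 (VIII), 0.0304 (IX), -0.00252 (XIV), -0.0723 (XV), -0.0748 (XVI) and 0.0294 (III).

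The centromere bin of chromosome VI set the evolved_Bub3 samples apart from all others. This bin (VI, 148001 to 149000) holds the centromere and the end of DEG1, a tRNA pseudouridine synthase. Among evolved_Bub3 samples line C2 had a value of 0.27, E3 of 0.36, G4 of 0.51 and the wildtype LY1 of 0.39. The other 42 samples ran from -0.376 through a median of -0.106 to 0.162, so the 4 evolved_Bub3 samples lay above every other sample. Such a separation was found in 6 of all 11810 bins (0.0508%), of which 2 lay near a centromere, this bin and the bin at FLR1 described next, and in no bin did all 4 lie below the others (0%). In reads, the bin held 252 in C2, 243 in E3 and 211 in G4 evolved_Bub3, against 217 in C2, 226 in E3 and 189 in G4 evolved. The LY1 samples held 302 reads as evolved_Bub3, 224 as evolved and 153 as non-evolved. Expressed as a multiple of the chromosome median, the bin averaged 1.31 in evolved_Bub3 lines, 0.923 in evolved lines and 0.950 in non-evolved lines. Within lines the difference between evolved_Bub3 and evolved was 0.42 (SE 0.0935), which did not pass the correction with the line as a block (limma adjusted p = 0.113) and passed it without the block, at 0.50 (SE 0.074, limma adjusted p = 2.98e-05). It also passed when bins were centred on all nuclear bins (0.48, limma adjusted p = 0.0352). Leaving out 1 line moved the blocked limma adjusted p from 0.049 without C2 to 0.849 without G4. The difference itself was 0.53 without C2 and 0.341 without G4, where the unadjusted limma p was 0.005. The bins on either side overlapped: 1 kb to the left the 4 evolved_Bub3 samples lay between -0.111 and 0.194 and the other samples between -0.389 and 0.296, and 1 kb to the right, over LOC1, between -0.0946 and 0.0853 against -0.374 to 0.141.

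Between evolved_Bub3 and evolved, 2 of 631 centromere bins were called, a share of 0.317%, where 0.0508% of all 11810 bins were called (6 bins, limma, Benjamini-Hochberg). At an unadjusted p under 0.05 stood 48 centromere bins (7.61%) and 775 of all bins (6.56%). The higher of the called bins lies 16.3 kb to the right of the chromosome II centromere (II, 254001 to 255000) and overlaps FLR1, a drug transporter of the plasma membrane. As evolved_Bub3, C2 had a value of 0.46, E3 of 0.63, G4 of 0.70 and LY1 of 0.49. The other 42 samples ran from -0.113 to 0.262 with a median of 0.0782, below all 4. The difference was 0.51 (SE 0.0761, limma adjusted p = 0.000313), with 3 of 3 lines higher. It kept its call without any 1 of the 3 lines, at 0.48 to 0.57. With bins centred on all nuclear bins instead of their own chromosome it stood at 0.0983 (adjusted p = 0.953): chromosome II was gained in C2 evolved_Bub3 (level 0.806) but not C2 evolved, and in E3 and G4 evolved (0.852 and 0.913) but not as evolved_Bub3.

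The bin to its right (II, 255001 to 256000) holds HHF1, a histone H4 gene. As evolved_Bub3, C2 had a value of 0.28, E3 of 0.48, G4 of 0.32 and LY1 of 0.41, against -0.20 to 0.41 in the other 42 samples, so the groups overlapped. The difference of 0.32 (SE 0.0936) did not pass (limma adjusted p = 0.423). The next bin, over the histone H3 gene HHT1, averaged 0.0629 ± 0.0722 in evolved_Bub3 lines, -0.0115 ± 0.129 in evolved lines and 0.0141 ± 0.0942 in non-evolved lines, and FLR1's other bins overlapped between the groups as well.

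**Figure D3:**
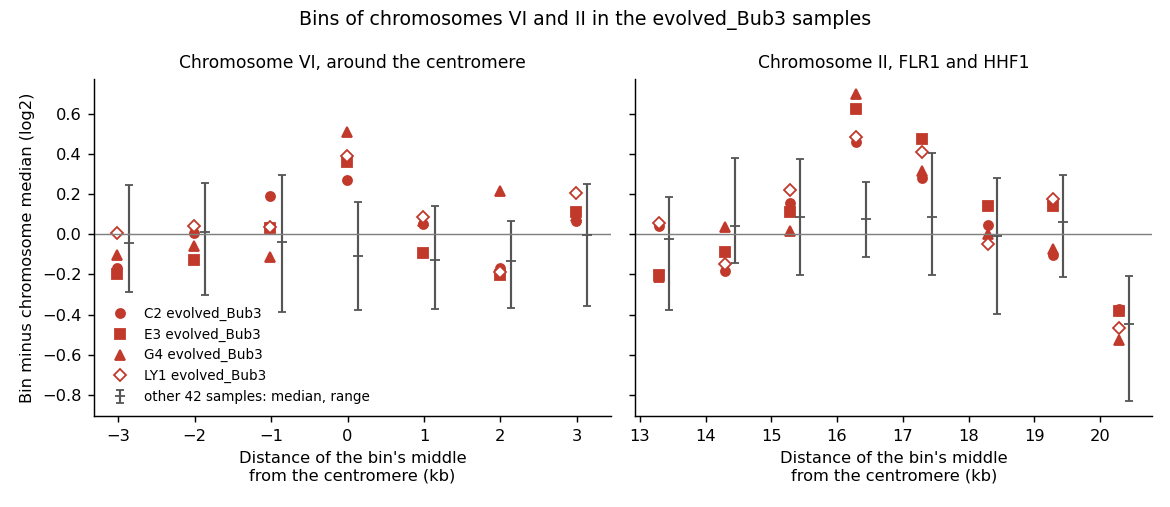
Log2 coverage minus the chromosome median (vertical axis) of bins around the chromosome VI centromere and at FLR1 and HHF1 on chromosome II, by distance of the bin's middle from the centromere in kb (horizontal axis). Red symbols are the 4 evolved_Bub3 samples, grey marks the median and range of the other 42 samples; the centromere bin of VI and the bin 16.3 kb from the centromere of II show all 4 above the range.

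The 4 other bins called between these states lay outside the centromere stretches, at URA3 and at or beside BUB3. URA3, a pyrimidine synthesis gene and common selectable marker 35.5 kb from the chromosome V centromere, was in a bin at 1.15, 1.57 and 1.74 in C2, E3 and G4 evolved_Bub3 and 1.26 in LY1 evolved_Bub3, against -0.198 to 0.289 in the other 42 samples. The difference was 1.39 (SE 0.106, limma adjusted p = 1.26e-10). A bin within BUB3 itself (XV, 380001 to 381000) was at 0.64, 1.398 and 1.35 in C2, E3 and G4 evolved_Bub3 and 1.23 in LY1, against -1.97 to 0.184 in the others, a difference of 2.84 (SE 0.129, adjusted p = 1.26e-16). The 6 bins of the genome in which all 4 evolved_Bub3 samples lay above every other sample were the centromere bin of VI, the FLR1 bin, the URA3 bin and 3 adjoining bins at and beside BUB3. As multiples of the chromosome median, the bins averaged 2.84 at URA3, 2.25 at BUB3, 1.52 at FLR1, 1.31 at the VI centromere and 1.28 at HHF1 in evolved_Bub3 lines, against 1.04 at URA3, 0.613 at BUB3, 1.07 at FLR1, 0.923 at the VI centromere and 1.06 at HHF1 in all 20 evolved lines. The lines differed widely in this bin within BUB3. The 20 evolved lines ran from -1.965 through a log2 median of -1.57 to 0.184, and the 20 non-evolved lines from -1.955 through -1.442 to 0.111. The highest lines were thus near the level of the wildtype, at 0.0616 evolved and -0.0506 non-evolved. The 3 lines that have evolved_Bub3 samples were at -1.73 (C2), -1.68 (E3) and -1.94 (G4) there as evolved. Besides these and the bins of chromosome VIII described next, the centromere bin with the lowest p lay 6.37 kb from the centromere of XI and was at -0.29 (SE 0.0751, adjusted p = 0.279).

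The lower called bin lies 18.1 kb to the left of the chromosome VIII centromere (VIII, 87001 to 88000), inside a stretch of nearly empty bins. It held 13, 15 and 16 reads in C2, E3 and G4 evolved_Bub3, against 26, 41 and 26 reads in the same lines evolved and 18, 31 and 36 non-evolved. Relative to chromosome VIII it was at -3.99, -4.60 and -4.09 in evolved_Bub3 and -2.94, -2.58 and -3.07 in evolved, a difference of -1.43 (SE 0.24, limma adjusted p = 0.00242). In the wildtype LY1, which entered no fit, the evolved_Bub3 sample was not lower: -2.637, against -2.865 evolved and -2.928 non-evolved. Chromosome VIII itself stood at 0.984 in E3 and 1.03 in G4 evolved_Bub3, 0 in C2 evolved_Bub3, and 0.0402 (C2), 0.0721 (E3) and 0.0367 (G4) in evolved. Relative to the sample baseline the bin was at -3.99 (C2), -3.62 (E3) and -3.07 (G4) in evolved_Bub3. As evolved it was at -2.9 (C2), -2.51 (E3) and -3.04 (G4), so G4 hardly differed. Centred on all nuclear bins, the difference was -0.83 (adjusted p = 0.0558), and without E3 it was -1.15 (adjusted p = 0.305), so the call was lost in both cases. The neighbouring bin (86001 to 87000) was at -1.13 (SE 0.252, adjusted p = 0.125).

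As whole stretches, no centromere window was called between evolved_Bub3 and evolved, and no window of the genome was (0% called). The lowest p among the 16 was that of IV, at -0.0734 (SE 0.0214, limma adjusted p = 0.31), followed by XIII at -0.0419 (SE 0.0189, adjusted p = 0.543). At an unadjusted p under 0.05 stood 2 of 16 centromere windows and 25 of 307 windows.

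Lasting low coverage near centromeres was found in 4 longer stretches and 2 single bins. Of the 640 centromere bins 26 (4.06%) had a mean below -1, against 2.86% of arm bins and 38.1% of bins within 20 kb of chromosome ends. The stretches cover 6 bins each, on I (160001 to 166000, at YAR009C and YAR010C), II (221001 to 227000, at YBL005W-B and YBL005W-A), VI (138001 to 144000, at YFL002W-A and YFL002W-B) and VIII (86001 to 92000, at YHL009W-B and YHL009W-A). Bins without reads in over 50% of samples numbered 4 in the stretch of VI, 4 in that of VIII and 1 in that of I. The lowest bin that still held reads in most samples lay in the stretch of II (223001 to 224000), at -6.55 ± 0.632 in evolved_Bub3 lines (n = 3), -6.67 ± 1.31 in evolved lines and -6.50 ± 1.16 in non-evolved lines (SD, n = 20 each). The lowest bins elsewhere were at -3.63 and -2.99 on I, -3.60 on VI, -3.48 and -3.08 on VIII and -2.90 and -2.87 on II, as means over 46 samples. The single bins lie at SSA1 (I, 140001 to 141000), an Hsp70 chaperone gene with a near-identical paralogue, and at YHL008C (VIII, 94001 to 95000).

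Where the chromosome was gained, 5 of these places could be read with and without an added chromosome. A gain was a chromosome level, its median relative to the sample baseline, at or above 0.3. The SSA1 bin was at a median of -0.122 (-0.41 to 0.176) in the 9 samples with a gain of I and at -1.10 (-1.53 to -0.723) in the 37 without it. That difference of 0.979 stood beside 0.887 for the whole centromere stretch of I. The stretch at YAR009C was at -1.51 (-1.80 to -1.31) with the gain and -2.40 (-2.84 to -2.05) without it. The stretch at YBL005W-B was at -1.19 (-1.41 to -0.982) in the 16 samples with a gain of II and -2.05 (-2.18 to -1.53) in the 30 without it, 0.857 apart, beside 0.892 for the centromere stretch of II. The bin at YHL008C was at -0.562 (-0.975 to -0.192) in the 7 samples with a gain of VIII and -1.18 (-1.59 to -0.871) in the 39 without it, 0.617 apart with ranges that overlap, beside 0.697 for the centromere stretch of VIII. The stretch at YHL009W-B was at -4.72 (-5.38 to -4.31) with the gain and -4.56 (-5.45 to -4.23) without it, a difference of -0.16, and its ranges overlapped. These are summed reads of each place, and since gains were read from the same data no test is attached.

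**Figure D4:**
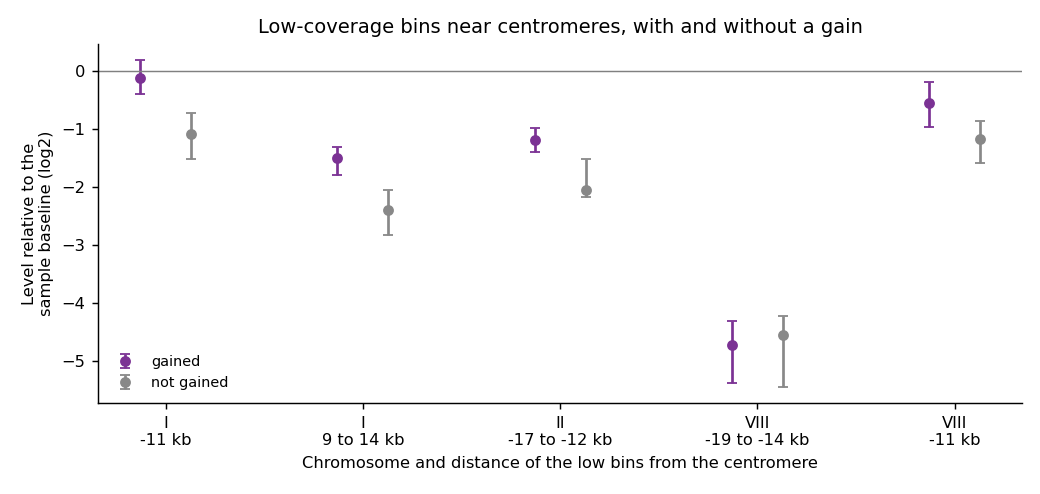
Level of the low-coverage bins near the centromeres of I, II and VIII, as summed reads relative to the sample baseline on the log2 scale (vertical axis), by chromosome and distance from the centromere (horizontal axis). Points are medians and bars the range over samples with a gain of that chromosome (purple) and without it (grey); the ranges separate on I and II and overlap at both places on VIII, where the medians differ by 0.617 at YHL008C and by -0.16 at YHL009W-B.

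High bins were few and their excess small. Of the 640 centromere bins 10 (1.56%) had a mean above 0.1, against 3.63% of arm bins. The highest lies 2.8 kb to the right of the chromosome IV centromere in NTH1 (452001 to 453000), at 0.158 ± 0.0452 in evolved_Bub3 lines (SD, n = 3), 0.236 ± 0.182 in evolved lines and 0.286 ± 0.134 in non-evolved lines (SD, n = 20 each). Next came bins holding tRNA genes on XII (168001 to 169000, mean 0.168) and IV (434001 to 435000, mean 0.132), with ILV6 and STP22 on III (0.136), an acetolactate synthase subunit and a protein of endosomal sorting, between them. The others of the 10 held SHU1 (VIII), FLR1 and HHF1 (II), ADE1 (I), FAA3 (IX), a long-chain acyl-CoA synthetase, and SIN3 (XV), a histone deacetylase subunit, at 0.101 to 0.126. The FLR1 bin averaged 0.596 in evolved_Bub3 lines but 0.0977 in evolved and 0.0659 in non-evolved lines. The HHF1 bin averaged 0.358 in evolved_Bub3, 0.0792 in evolved and 0.0972 in non-evolved lines. TRP1, ADE1 and MET14 are classical centromere-linked markers. TRP1, a tryptophan synthesis gene 12.5 kb from the centromere of IV, averaged -0.0789 ± 0.177 in evolved_Bub3, 0.0742 ± 0.0895 in evolved and 0.0631 ± 0.0684 in non-evolved lines. ADE1, with a bin among the 10 highest, averaged 0.0745 ± 0.113 in evolved_Bub3, 0.0649 ± 0.0691 in evolved and 0.135 ± 0.0688 in non-evolved lines. MET14, 1.05 kb from the centromere of XI, averaged -0.112 ± 0.0977 in evolved_Bub3, 0.0339 ± 0.0767 in evolved and 0.00194 ± 0.121 in non-evolved lines.

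Bins near centromeres varied between samples as arm bins did. The median SD between lines was 0.128 in evolved and 0.131 in non-evolved lines over 614 centromere bins, and 0.127 and 0.132 over 10434 arm bins, where counting error alone gives 0.1. Within 20 kb of centromeres lay 337 of 6002 nuclear protein-coding genes (5.61%) and 26 of 275 tRNA genes (9.45%), where the stretches make up 5.3% of the bins. Of 52 kinetochore, checkpoint, cohesin and condensin genes listed by name, 1 lay there, the cohesin subunit MCD1, 4.18 kb from the centromere of IV.

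The arms of gained chromosomes lay at like levels. In all, 55 gains were read in 29 samples: 7 in evolved_Bub3, 25 in evolved and 23 in non-evolved lines, of II (16), III (11), I (9), VIII (7), X (6), XI (4) and XII (2). The levels of gained chromosomes ran from 0.375 to 1.29. The left minus the right arm differed by at most 0.0651 in size over the 55 gains, with a median of 0.0043. The largest size was 0.1 with whole arms, chromosome ends and centromere stretches included, and 0.347 with means in place of medians over bins. In gained chromosomes II it ran from -0.0147 to 0.0299, against -0.0345 to 0.0532 in the 30 samples without that gain. In gained chromosomes III it ran from -0.0256 to 0.0456, against -0.0676 to 0.0797 in the 35 without the gain. In gained chromosomes I it ran from -0.0183 to 0.0649, against -0.0178 to 0.1002 in the other 37, and in gained chromosomes VIII from -0.0386 to 0.0651, against -0.0255 to 0.165 in the other 39. Gained chromosomes X, XI and XII stayed within the range of the samples without the gain. The gains outside that range numbered 2 of 55 (3.64%): I in F4 evolved, at -0.0183 against a lowest value of -0.0178, and VIII in D4 non-evolved, at -0.0386 against -0.0255.

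The centromere stretch shared the level of its gained chromosome. Its difference from the arms ran from -0.0782 to 0.0451 over the 55 gains and from -0.152 to 0.0582 for the same chromosomes without a gain. In 1 of 55 gains it fell outside that chromosome's range: VIII in E4 non-evolved, at 0.0451 against a highest value of 0.0446. The flanks of the centromere, read as the 20 kb on its left minus the 20 kb on its right, lay outside the range of samples without the gain in 2 of 9 gains of I and in none of the gains of the 6 other chromosomes. The lowest value in gains of I was -0.0791, against -0.0470 to 0.2424 in the 37 samples without that gain. In the 3 gains of lowest level both arms were raised. The left arm was at 0.362 and the right at 0.388 for III in D4 evolved (level 0.375), at 0.392 and 0.401 for X in B3 evolved (level 0.385), and at 0.691 and 0.627 for VIII in D4 evolved (level 0.633).

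**Figure D5:**
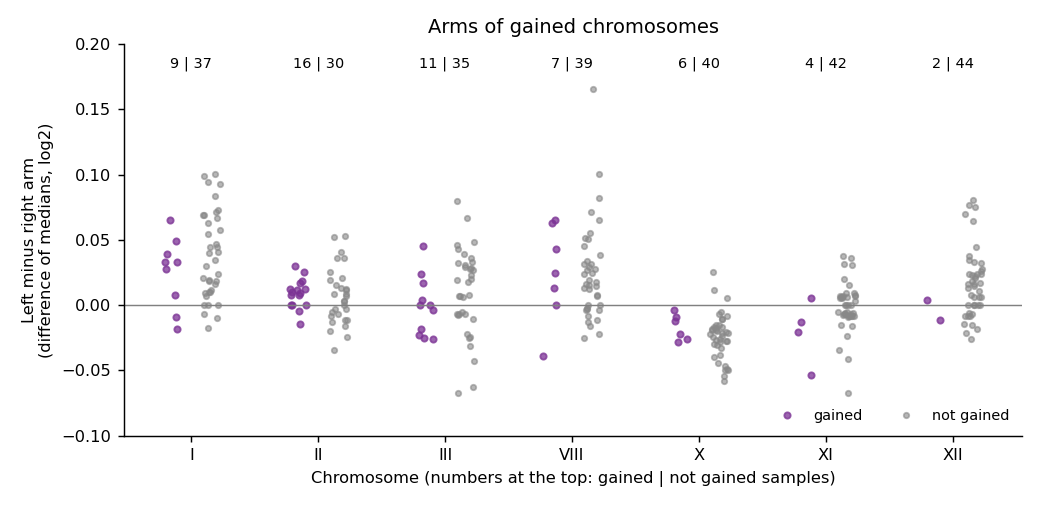
Median log2 level of the left arm minus that of the right arm (vertical axis) for the 7 chromosomes that were gained in any sample (horizontal axis). Points are samples with the gain (purple) and without it (grey), with their numbers above; the 55 gains lie between -0.0532 and 0.0651, and all but 2 within the range of the same chromosome without a gain.

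The difference of the arms passed the test between evolved and non-evolved lines on no chromosome. Over the 20 lines, 0 of 16 chromosomes were called (0%) in paired sign-flip permutation tests (two-sided, 100000 resamples) adjusted over the 16, and 0 had an unadjusted p under 0.05. The lowest p was that of XII, where the left minus the right arm was 0.0190 ± 0.0234 in evolved and 0.00599 ± 0.0236 in non-evolved lines (SD, n = 20 each), higher in 13 of 20 lines (permutation p = 0.078, adjusted p = 0.626). On VI it was -0.0201 ± 0.0262 in evolved and -0.0351 ± 0.0285 in non-evolved lines, higher in 15 of 20 lines (permutation p = 0.0782, adjusted p = 0.626). The largest lasting offset was on IX, the left arm being lower by a median of -0.0469 over 46 samples, and the extreme value there, -0.269, was that of B2 non-evolved.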

How the data were processed

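Each of the 46 samples had 1 deposited table of log2 copy ratios per 1 kb bin, in GATK's copy-number format per the file headers, with the contigs of the R64 assembly. Trimmomatic 0.39, BWA 0.7.17, Picard 2.27.1 and GATK are named per the submitters' processing notes. Duplicate removal, GC correction and any panel of normal samples are not given in the sources used here. W303 reads on the S288C assembly can under- or over-cover a bin in all samples.

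Ratios were whole reads over the median bin (100% of values, tolerance 0.01 reads). Bins without reads in over 50% of samples were left out, 11810 remained, and an empty value was set to 0.5 reads. Samples were grouped by title. limma 3.58.1 (R 4.3.3) used line as a block, since titles pair the states by line. Deviations of paired samples correlated at -0.0197 to 0.0411. Named items were the 16 stretches and centromere bins, the 10 highest and 10 lowest bins, called or empty bins, TRP1, ADE1 and MET14 and gained chromosomes. The HHF1, URA3 and BUB3 bins, flanking bins and the comparison of low bins by gain were chosen after their values were seen. The members and lists were chosen with earlier results of these data known. Gene names and positions are from a RefSeq table of R64. The limma fits between states were tried on simulated bins and windows with known changes. SDs are spreads between lines, each with 1 library, and so hold differences between lines as well as counting and library error. The counting SD treats reads as independent molecules, although they carry no molecular identifiers.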

Additional observations from a re-analysis of the deposited data

How the results depend on the processing

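Of 401 alternative values for 68 results, 351 stayed the same by the rule for their kind. Tested values had to keep their direction and their side of the threshold. Untested differences had to move by less than the spread between samples. Counts, as of calls or gains, were allowed a limited relative change, so a count labelled the same can still differ. Without the replicate block, so with lines unpaired, 4 centromere bins were called between evolved_Bub3 and evolved where 2 were called with it, adding the VI centromere bin (0.502) and 1 on XII, and 10 of all bins where the main count was 6; no other centromere bin or window changed its call. Centred on all nuclear bins, 6 were called and neither of the main 2, with 105 of all bins called where the main count was 6. There FLR1's bin was at 0.0983 and HHF1's reversed to -0.0996, while chromosome gains differed between the states. Within 10 kb of the centromeres 0 of the bins were called. Leaving out 1 of the 3 lines gave 1 to 4 called bins: 1 without E3, 4 without C2 and 2 without G4. Of all 11810 bins, 5, 9 and 7 were called in these settings. For the windows set against their chromosome median, 1 of 16 was called higher in evolved lines with windows of 20 kb, with means over bins and with centring on the arms. Of all windows, 29.9%, 24.8% and 22.8% were called higher in these settings. In non-evolved lines 7 of 16 were lower with means over bins, where 41.7% of all windows were. Without lines B2 and A4 the call of IX in evolved lines was lost (0.0146, limma adjusted p = 0.0695). There 2 centromere windows were still called higher, so another had come in, against 29% of all windows. In non-evolved lines 3 were called higher, where the main count was 2, against 33.2% of all windows. In evolved_Bub3 lines the centromere stretches were below the arms by -0.0139 within 10 kb and by -0.0329 with means over bins, and by -0.0225 to -0.0193 without 1 line. Of 21 chromosome values that moved, 20 moved with means over bins, which take in the nearly empty bins; the stretch of VIII in evolved lines was at 0.0250 within 10 kb. With whole arms 1 gain had arms outside the range of samples without it, and with means over bins 0 gains had arms, and 0 the centromere stretch, outside it. The cause of these changes was not tested. Depth limits single bins: counting error alone gives an SD of 0.1, and only 3 lines have evolved_Bub3 samples.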

Other observations

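LEU2, the marker of the chromosome III centromere region, lies 22.5 kb to the left of the centromere and so just outside the stretch. Its bins averaged 0.708 ± 0.321 in evolved_Bub3 lines (SD, n = 3), 0.469 ± 0.369 in evolved lines and 0.453 ± 0.422 in non-evolved lines (SD, n = 20 each), on the log2 scale relative to chromosome III. In the wildtype they were at -0.0232 in the evolved_Bub3, 0.198 in the evolved and 0.0581 in the non-evolved sample. CDC10, a septin gene 3.48 kb to the right of the same centromere, averaged 0.0553 ± 0.0701 in evolved_Bub3, -0.0361 ± 0.0706 in evolved and -0.0399 ± 0.0989 in non-evolved lines.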
